A study of Mus musculus with 8 samples.

Results

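The genes described here are the heat shock proteins, the DnaJ co-chaperones, the BAG co-chaperones and the heat shock transcription factors Hsf1 and Hsf2. They were chosen by gene symbol alone, with pseudogenes and the endoplasmic reticulum chaperone Hspa5 left out, and they number 79 of the 55487 genes in the count tables. RNA was sequenced from whole liver of male mice, 4 Control (mice 154, 159, 181 and 193) and 4 Mc1r LKO (mice 141, 156, 157 and 182). Mc1r LKO mice carry floxed Mc1r alleles (Mc1r fl/fl) and 1 Cre allele driven by the albumin promoter (Alb Cre/+), which removes the melanocortin 1 receptor from hepatocytes and leaves it in the other cells of the liver. Control mice are age-matched Mc1r fl/fl mice without Cre, so both groups carry the floxed alleles and only 1 carries Cre. All mice ate a Western diet for 12 weeks from 8 weeks of age and were fasted before the liver was taken. The comparison asks how loss of the receptor from hepatocytes changes liver gene expression on this diet.

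Heat shock proteins are chaperones that hold, fold or refold other proteins. HSP70 proteins bind unfolded stretches of a client in a cycle of ATP hydrolysis, DnaJ proteins bring clients to HSP70 and start that hydrolysis, and nucleotide exchange factors such as HSP110 and BAG proteins release the client, which may pass on to HSP90 or to a chaperonin. A subset of the genes is switched on within minutes by heat and other protein-damaging stress through HSF1, which binds repeats of the letters nGAAn, the heat shock element, in their promoters. Hepatocytes secrete large amounts of protein and hold many mitochondria, so chaperones of the endoplasmic reticulum and of the mitochondrion are abundant in liver.

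Total counts per liver were between 10773151 and 24763375 read pairs, and the chaperone genes took between 0.532% and 0.833% of them. Mc1r had 0 counts in every liver, so the genotype labels could not be checked against it. Given counting error alone, a true level of 3 counts could still give 0, which is 0.121 to 0.278 CPM (a count scaled to a common library total). On the first principal component, with 37.6% of the variance, Mc1r LKO 182 lay at 59.3 and Control 181 at 27.8, against -28.2 to -7.03 for the other 6 livers. Results on the chaperone genes are therefore given with and without Mc1r LKO 182, and in many cases without both livers. Hepatocyte markers summed to between 73462 and 108077 normalized CPM with none of the 8 markers at 0. In whole liver, fewer cells of a type and less RNA per cell cannot be told apart.

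Promoter sequences are shown for chaperone genes whose promoters carry the letters of the heat shock element. RefSeq promoter windows on GRCm38.p6, from 250 bases before the annotated start to 50 bases after it, were matched to 64 of the 79 genes, with 82 windows in all because some genes have several starts. Both strands were searched for GAANNTTC and TTCNNGAA. These are the letters of a pair of heat shock repeats facing towards (GAANNTTC) or away from (TTCNNGAA) each other. The search also took GAANNTTC with the letters NNGAA joined to its end, which holds 3 repeats and contains a match of each shorter motif. GAANNTTC stood in 19.5% of the windows of the chaperone genes and in 7.86% of all 32851 promoter windows. It stood in 60% of the windows of genes listed as HSF1-induced (below) and in 10.45% of those of the other chaperone genes. Of the 13 genes listed as HSF1-induced, 10 had a window and 8 of these carried it, where 9.04% of all genes with a window did. TTCNNGAA stood in 9.76% of the windows of the chaperone genes and in 8.52% of all windows. The longest motif stood in 0.603% of all windows, and the chaperone genes that carried it were Dnajb6, Hspd1, Hspe1 and Hsph1. A match of these letters is a description of the sequence and not a measured binding site. In the stretches below the capitals mark the motifs, and each stretch is written 5′ to 3′ on the strand of the gene.

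The first pair belongs to Hspa1b, chr17:34959299-34959373 on the minus strand, and Hspa1a, chr17:34972217-34972291 on the minus strand, the inducible HSP70 genes. Both lie between 135 and 61 bases before the start and are identical over 75 bases, and 247 of the 250 bases before the start are the same in both genes.
Hspa1b: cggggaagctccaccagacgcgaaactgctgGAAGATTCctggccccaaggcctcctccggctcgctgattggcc
Hspa1a: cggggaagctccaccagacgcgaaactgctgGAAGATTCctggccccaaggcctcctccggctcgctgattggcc

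The next 4 stretches are shorter. They belong to Hspe1, chr1:55088053-55088082 (plus strand), to Dnaja1, chr4:40722333-40722362 (plus strand), to Hspb1, chr5:135887779-135887848 (plus strand), and to Dnajb6, chr5:29735843-29735872 (plus strand). In Hspe1 the capitals hold overlapping matches of all 3 motifs, Hspb1 has a pair of separate GAANNTTC matches, and Dnajb6 has 1 match of the longest motif.
Hspe1: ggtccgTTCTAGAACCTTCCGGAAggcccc
Dnaja1: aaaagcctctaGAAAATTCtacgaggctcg
Hspb1: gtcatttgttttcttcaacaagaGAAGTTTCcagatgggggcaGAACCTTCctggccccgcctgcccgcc
Dnajb6: cagctccgaGAATCTTCCGGAAcgctagac

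Of the 79 genes, 70 were kept by the filter on low counts and tested among 13400 genes. The 9 genes not kept were Dnajb3, Dnajb7, Dnajb8, Dnajb13, Dnajc6, Hspa1l, Hspb3, Hspb7 and Hspb9, and Dnajb8 and Hspb3 had no count in any liver. Levels of different genes are compared per kilobase of annotated exon, as normalized CPM per kb. Over the 8 livers the tested genes ranged from 0.137 CPM per kb for Dnajc27 to 376 for Hsp90ab1, with a median of 5.66. The next highest were Hsp90b1, the HSP90 of the endoplasmic reticulum, at 205 CPM per kb, Hspa8, the constitutive cytosolic HSP70, at 186, Hspd1, the mitochondrial HSP60, at 115, and Hspa9, the mitochondrial HSP70, at 113. Inducible Hspa1b stood at 5.67 CPM per kb and Hspa1a at 0.438, well under Hspa8.

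Few of these genes differed by genotype. Hspe1, the mitochondrial HSP10 that caps the HSP60 chamber, was higher in Mc1r LKO livers, and Hspbap1, a protein that binds Hspb1, was lower, at an unadjusted p under 0.05 and a log2 fold change of at least 0.25 in size (edgeR's quasi-likelihood test). They make 2 of 70 genes, or 2.86%, against 5.31% of all genes tested, of which 2.64% were higher and 2.66% lower. Without the limit on the fold change Dnajc11 and Dnajc15 joined as higher, which made 4 of 70 genes, or 5.71%, against 6.72% of all genes, 3.86% higher and 2.87% lower. None of the 70 passed an adjusted p under 0.05 (edgeR's quasi-likelihood test, Benjamini-Hochberg), where 0% of all genes did, and none passed it with DESeq2, limma-voom or edgeR's likelihood ratio test, where 17, 0 and 8 of all genes did. At the unadjusted threshold with the limit on the fold change these called 3, 2 and 3 of the 70, against 5.55%, 5.2% and 5.25% of all genes. The unadjusted p-values come from setting the genotype difference against the spread between these mice, which the fit estimates in part from all genes. Both unadjusted shares lay below those of all genes.

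**Figure D1:**
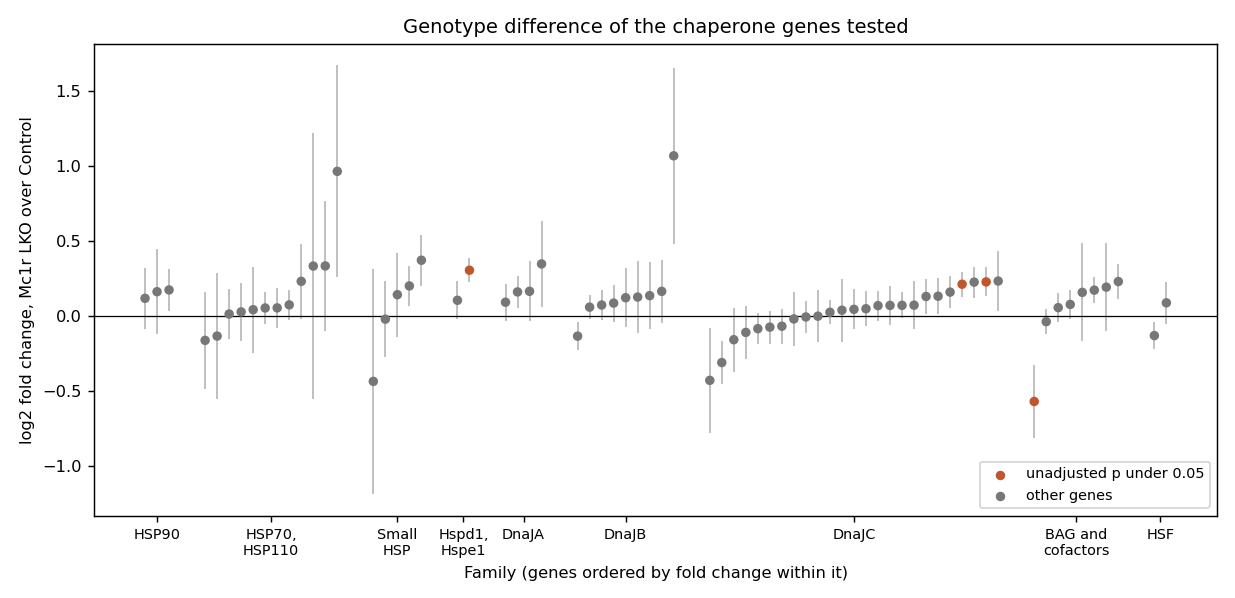
Log2 fold change of Mc1r LKO over Control (y axis) for each of the 70 tested chaperone genes, grouped by family on the x axis and ordered within it; bars are ± 1 standard error of the edgeR fit and coloured points have an unadjusted p under 0.05. Most points lie just above 0, with a median of 0.08, and the longest bars belong to Hspa1a (0.886), Hspb2 (0.751), Hspa1b (0.706) and Dnajb1 (0.588).

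Hspe1 was the gene with the clearest genotype difference. It lies at chr1:55088132-55091307 on the plus strand (ENSMUSG00000073676). Its level was 84.9, 87.7, 93.0 and 83.4 CPM in Control 154, 159, 181 and 193, and 107, 104, 103 and 117 CPM in Mc1r LKO 141, 156, 157 and 182, the order kept for all values below. Every Mc1r LKO liver lay above every Control liver. The means were 87.2 ± 4.21 and 108 ± 6.34 CPM (SD, n = 4 each), a log2 fold change of 0.31 (SE 0.081, unadjusted p = 0.00333 and adjusted p = 0.734, edgeR's quasi-likelihood test, Benjamini-Hochberg). The two-sided exact permutation test of the CPM gave p = 0.0286, the smallest that 4 livers against 4 allow. Without both Control 181 and Mc1r LKO 182 the log2 fold change was 0.31 (unadjusted p = 0.00488, edgeR's quasi-likelihood test). About 10.0% of its 100-base words also occur in the transcripts of 1 other annotated gene, and reads that fall there may not be counted.

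Hspd1 encodes the HSP60 that Hspe1 works with, and it had 2 RefSeq promoter windows. The start of 1 of them lies 215 bases from that of Hspe1, head to head on the opposite strand. The Hspe1 stretch printed above lies between these starts and overlaps an annotated exon of Hspd1. The level of Hspd1 was 303, 259, 320.1 and 294 CPM in Control livers and 278, 288, 304 and 396 CPM in Mc1r LKO livers. The groups overlapped, and only Mc1r LKO 182 lay above the Control range. The log2 fold change was 0.11 (SE 0.126, unadjusted p = 0.418, edgeR's quasi-likelihood test), and -0.01 without Mc1r LKO 182. Without both Control 181 and Mc1r LKO 182 it was 0.03. Per kb, Hspe1 stood at 0.535 ± 0.0490 of Hspd1 in Control livers and at 0.620 ± 0.0693 in Mc1r LKO livers (SD, n = 4 each, two-sided exact permutation test, p = 0.0857), a ratio chosen after the values were seen. The ranges of this ratio overlapped between the groups. Reads were counted by strand, so the 5′ ends of the genes, which overlap in the Ensembl annotation, do not share counts.

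Dnajc11, a mitochondrial DnaJ protein tied to the cristae-organizing complex, was the other gene in which the genotypes did not overlap. It had 55.3, 47.9, 54.4 and 50.8 CPM in Control livers and 61.9, 59.8, 55.9 and 64.2 CPM in Mc1r LKO livers. The lowest Mc1r LKO liver, 157, lay just above the highest Control liver, 154. The log2 fold change was 0.21 (SE 0.083, unadjusted p = 0.0276, adjusted p = 0.734, edgeR's quasi-likelihood test, Benjamini-Hochberg). The unadjusted p was between 0.0586 and 0.0647 without Control 159 or 193 or Mc1r LKO 141 or 182, and 0.0513 without both Control 181 and Mc1r LKO 182, in edgeR's quasi-likelihood test. The 2 non-overlapping genes make 2.86% of the 70, against 4.16% of all genes tested, 2.63% higher and 1.54% lower in Mc1r LKO livers. Without both of these livers 7 of 70 did not overlap, or Dnaja2, Dnajc11, Dnajc15, Dnajc16, Dnajc19, Hsf2 and Hspe1, where 13% of all genes did not.

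Dnajc15, a DnaJ protein of the mitochondrial inner membrane that works with the protein import motor, had 24.9, 23.3, 24.1 and 25.0 CPM in Control livers and 29.5, 29.0, 31.4 and 24.1 CPM in Mc1r LKO livers. Mc1r LKO 182 sat within the narrow Control range and the other 3 Mc1r LKO livers lay above it. The log2 fold change was 0.23 (SE 0.097, unadjusted p = 0.0395, adjusted p = 0.734, edgeR's quasi-likelihood test, Benjamini-Hochberg) and 0.31 without Mc1r LKO 182. Without any 1 of the other 7 livers the unadjusted p lay between 0.0539 and 0.105 in edgeR's quasi-likelihood test. Its relative Dnajc19, another partner of the import motor, had a log2 fold change of 0.23 and just missed the threshold (unadjusted p = 0.0506, edgeR's quasi-likelihood test). A fixed list held 8 genes with mitochondrial products and may leave out other chaperone genes with such products. Of these 8, 7 were higher and 3 (Hspe1, Dnajc11 and Dnajc15) passed at the unadjusted threshold, which 3.86% of all genes passed as higher. Their median log2 fold change was 0.16, against -0.01 over all genes, and without Mc1r LKO 182 5 of 8 were higher with a median of 0.12. Without both Control 181 and Mc1r LKO 182, 7 of 8 were higher, with a median of 0.16. The mitochondrial HSP70 gene Hspa9 was on the list and did not pass the threshold. It had 514, 417, 525 and 438 CPM in Control livers and 496, 473, 498 and 530.4 CPM in Mc1r LKO livers, overlapping ranges with a log2 fold change of 0.08 (SE 0.101).

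**Figure D2:**
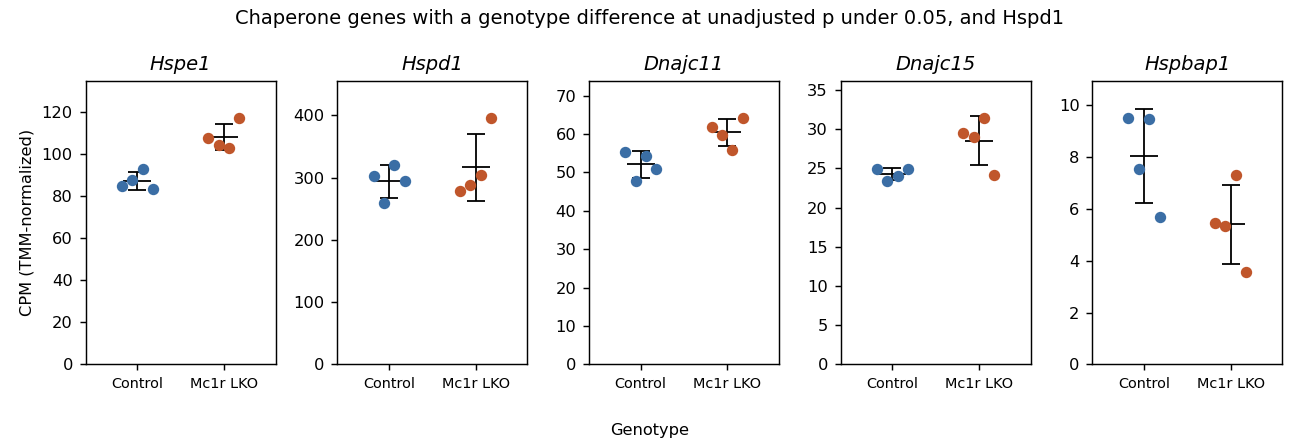
Normalized CPM (y axis, from 0) of 5 chaperone genes in each liver by genotype on the x axis; points are single livers, bars the mean ± SD of 4. The genotypes separate for Hspe1 (83.4 to 93.0 against 103 to 117 CPM) and Dnajc11, and overlap for Hspd1, Dnajc15 and Hspbap1.

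Hspbap1 had 9.52, 7.53, 9.48 and 5.71 CPM in Control livers and 5.46, 5.33, 7.31 and 3.58 CPM in Mc1r LKO livers. The ranges overlapped, with Control 193 below Mc1r LKO 157, and Mc1r LKO 182 was the lowest liver. The log2 fold change was -0.57 (SE 0.244, unadjusted p = 0.0417, adjusted p = 0.735, edgeR's quasi-likelihood test, Benjamini-Hochberg). Without Mc1r LKO 182 it was -0.40 (unadjusted p = 0.0988, edgeR's quasi-likelihood test), and the call was also lost without Control 154, 159 or 181 or Mc1r LKO 141 or 156, at unadjusted p-values of up to 0.110. Hspb8, a small heat shock protein that works with BAG3, just missed the threshold at a log2 fold change of 0.37 (unadjusted p = 0.0510, edgeR's quasi-likelihood test). So did Dnajc16, a DnaJ protein of the endoplasmic reticulum, at -0.31 (unadjusted p = 0.0553, edgeR's quasi-likelihood test). Dnajb13, a DnaJ protein of sperm tails and motile cilia, was too low for the fit. Its counts were 13, 13, 4 and 8 in Control livers and 1, 0, 4 and 2 in Mc1r LKO livers, and scaled by total count it was 0.202 to 1.21 against 0 to 0.162 CPM (two-sided exact permutation test, p = 0.0286). Control 181 and Mc1r LKO 157 both had 4 counts, so only their library totals set them apart. Their values lie where a true level could give 0 counts (0.121 to 0.278 CPM). With no filter beyond 1 count, 3 of 77 chaperone genes did not overlap, Dnajb13 among them, against 3.01% of all genes.

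Across all 70 tested genes, 53 were higher in Mc1r LKO livers, with a median log2 fold change of 0.08, whereas 47.9% of all genes were higher with a median of -0.01. Without Mc1r LKO 182, 36 of 70 were higher and the median was 0.01. Without both Mc1r LKO 182 and Control 181, 47 of 70 were higher and the median was 0.08. In both livers the 4 largest increases over the rest of their group among the chaperone genes were those of Hspa1a, Hspa1b, Dnajb1 and Hsph1, which HSF1 induces, and the largest decrease was that of Hspb2, at -2.51 in Mc1r LKO 182 and -1.52 in Control 181 on the log2 scale.

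The HSF1-induced list held 13 of the genes: Hspa1a, Hspa1b, Hspa8, Hspa4, Hsph1, Hsp90aa1, Hsp90ab1, Hspb1, Hspd1, Hspe1, Dnaja1, Dnajb1 and Bag3. All 13 were above the mean of the other 3 Mc1r LKO livers in Mc1r LKO 182, and 8 of them by more than 1 on the log2 scale, where 2.09% of all genes and 0 of the 57 other chaperone genes did so. In Control 181, 12 of 13 were above the mean of the other 3 Control livers and 2 by more than 1 on the log2 scale, where 1.21% of all genes did so. By genotype 12 of the 13 were higher in Mc1r LKO livers, with a median log2 fold change of 0.23, where 47.9% of all genes were higher. Without Mc1r LKO 182, 2 of 13 were higher, with a median of -0.10. Without both livers 9 of 13 were higher, with a median of 0.07. Both livers were singled out after the values were seen, so these counts are a description with no test.

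**Figure D3:**
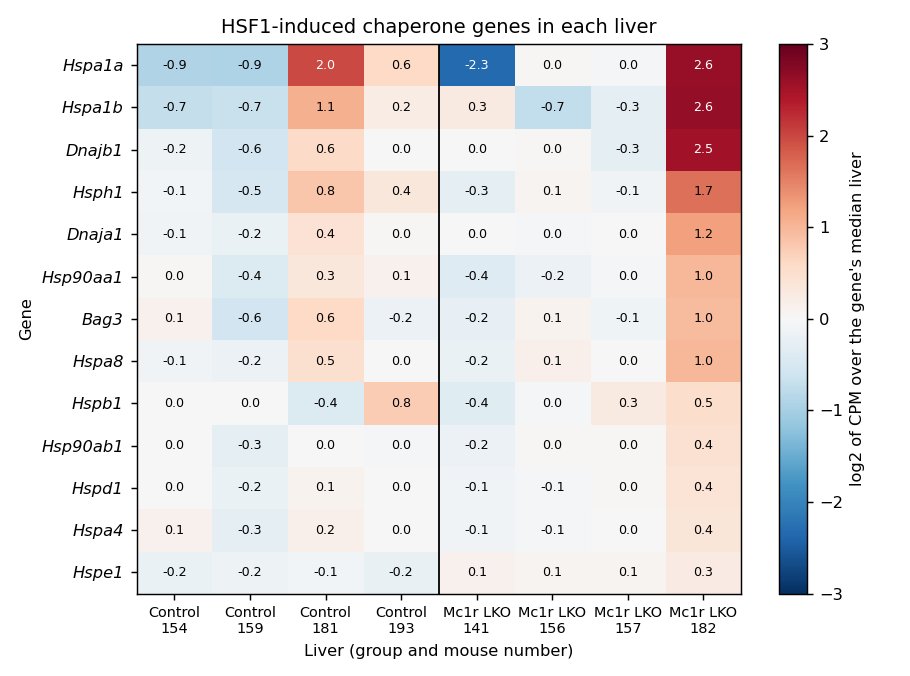
Heat map of the 13 HSF1-induced genes (y axis) in the 8 livers (x axis, by group and mouse number), with colour and printed value giving the log2 of CPM over the gene's median liver. The column of Mc1r LKO 182 is above 0 for every gene, and the column of Control 181 for most.

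Dnajb1, the DnaJ partner of inducible HSP70 and a classic heat shock gene, had 28.6, 21.5, 47.3 and 31.9 CPM in Control livers and 31.7, 32.5, 26.5 and 181 CPM in Mc1r LKO livers. Mc1r LKO 182 stood apart, Control 181 was next, and the other 6 livers lay within 21.5 to 32.5 CPM. The log2 fold change by genotype was 1.07 (SE 0.588, unadjusted p = 0.0985, edgeR's quasi-likelihood test), -0.10 without Mc1r LKO 182 and 0.14 without both livers. Mc1r LKO 182 exceeded the mean of the other Mc1r LKO livers by 2.58 on the log2 scale, rank 26 of 13400 genes.

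Hspa1b had 5.85, 6.04, 19.9 and 11.1 CPM in Control livers and 11.5, 5.72, 7.96 and 59.1 CPM in Mc1r LKO livers. Its near-copy Hspa1a had 0.372, 0.372, 2.76 and 1.06 CPM in Control livers and 0.138, 0.715, 0.687 and 4.29 CPM in Mc1r LKO livers. In both genes Mc1r LKO 182 was highest and Control 181 second, and they ranked 20 and 16 of 13400 genes by the excess of Mc1r LKO 182. Hspa1b shared 49.9% and Hspa1a 48.6% of their 100-base words with other transcripts, mainly with each other, so the split of reads between them is uncertain. The log2 fold change by genotype was 0.97 for Hspa1b (SE 0.706) and 0.33 for Hspa1a (SE 0.886), and both were negative without Mc1r LKO 182, at -0.36 and -1.14. Without both Control 181 and Mc1r LKO 182 they were 0.12 and -0.26.

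Hsph1, the HSP110 exchange factor of HSP70, had 58.4, 43.3, 110.1 and 78.7 CPM in Control livers and 51.2, 65.0, 57.0 and 194 CPM in Mc1r LKO livers. Hspa4, a second HSP110, varied less between livers, at 164, 121, 167 and 148 CPM and 139, 143, 150.4 and 191 CPM. Hspa8 had 649, 619.8, 967 and 707 CPM in Control livers and 610.3, 772, 690.2 and 1387 CPM in Mc1r LKO livers. All 3 were highest in Mc1r LKO 182 and highest among Control livers in 181. Their log2 fold changes by genotype were 0.34, 0.06 and 0.23, with standard errors of 0.433, 0.134 and 0.251, and were -0.33, -0.05 and -0.09 without Mc1r LKO 182. Without both Control 181 and Mc1r LKO 182 they were -0.06, 0.01 and 0.08.

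Dnaja1, a farnesylated DnaJ partner of Hspa8, had 129, 122, 189 and 143 CPM in Control livers and 141, 137, 137 and 327 CPM in Mc1r LKO livers. The other 3 Mc1r LKO livers lay between 137 and 141 CPM, inside the Control range. Bag3, the exchange factor that leads HSP70 clients to autophagy, had 50.6, 31.1, 69.9 and 41.1 CPM in Control livers and 39.0, 49.9, 42.4 and 89.6 CPM in Mc1r LKO livers. Mc1r LKO 182 exceeded its group by 1.24 on the log2 scale for Dnaja1 and by 1.04 for Bag3. About 9.2% of the words of Dnaja1 are shared with other transcripts.

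The cytosolic HSP90 genes differed from each other. The inducible Hsp90aa1 had 145, 105, 178 and 154 CPM in Control livers and 108, 125, 137 and 281 CPM in Mc1r LKO livers, with an excess of 1.19 on the log2 scale in Mc1r LKO 182, and shared 38% of its words with other transcripts. The constitutive Hsp90ab1 had 1119, 913, 1114 and 1086 CPM in Control livers and 985, 1135, 1136 and 1524 CPM in Mc1r LKO livers, an excess of 0.49 on that scale. Both peaked in Mc1r LKO 182, Hsp90aa1 by the larger margin, and both groups overlapped. Their log2 fold changes by genotype were 0.16 (SE 0.283) and 0.18 (SE 0.140), and -0.23 and 0.04 without Mc1r LKO 182. Without both Control 181 and Mc1r LKO 182 they were -0.12 and 0.07.

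Mc1r LKO 182 was the highest liver for 12 of the 13 HSF1-induced genes, all but Hspb1, the small heat shock protein HSP25 of the mouse. Hspb1 had 27.1, 27.4, 20.5 and 46.5 CPM in Control livers and 21.2, 26.5, 32.8 and 39.5 CPM in Mc1r LKO livers, so that Control 193 was highest and Control 181 lowest of all livers. Its log2 fold change was -0.02 (SE 0.254), and 44.0% of its words are shared with a pseudogene, Hsp25-ps1. The related Hspb2, a small heat shock protein of muscle, was low and among the most variable between livers, at 0.532, 0.837, 0.156 and 0.612 CPM in Control livers and 0.415, 0.650, 0.485 and 0 CPM in Mc1r LKO livers. It was lowest in Mc1r LKO 182 and second lowest in Control 181.

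**Figure D4:**
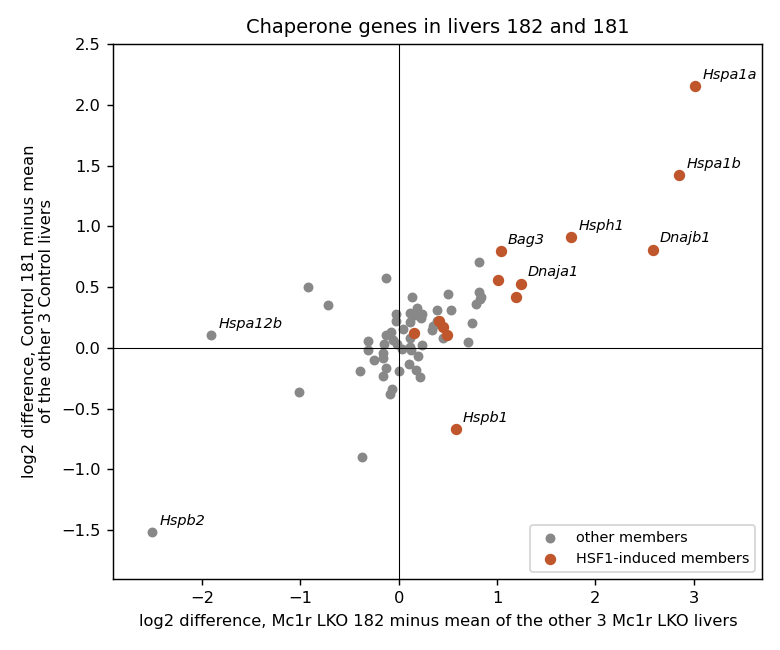
For each of the 70 tested chaperone genes, the log2 difference of Mc1r LKO 182 from the mean of the other 3 Mc1r LKO livers (x axis) and of Control 181 from the mean of the other 3 Control livers (y axis). Hspa1a (3.01 and 2.15), Hspa1b (2.86 and 1.42) and Dnajb1 (2.58 and 0.81) lie far to the upper right, Hspb1 is the HSF1-induced gene below 0 on the y axis, and most other genes lie near the origin.

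The genes of the transcription factors were not highest in Mc1r LKO 182. Hsf1, the master regulator of the response, had 18.3, 13.9, 13.9 and 14.96 CPM in Control livers and 15.1, 20.1, 14.99 and 15.1 CPM in Mc1r LKO livers. Mc1r LKO 182 lay within the Control range, and Mc1r LKO 156 was the highest liver. Hsf2, which can pair with HSF1, had 24.4, 23.8, 22.9 and 27.5 CPM in Control livers and 22.3, 22.4, 21.8 and 23.8 CPM in Mc1r LKO livers. Their log2 fold changes were 0.09 (SE 0.138) and -0.13 (SE 0.089).

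Of the 7 genes on the endoplasmic reticulum list, 4 were higher in Mc1r LKO 182 by about the same amount. The list does not hold every chaperone gene of that compartment. Hsp90b1 had 679, 693, 964 and 831 CPM in Control livers and 752, 702, 709.9 and 1277 CPM in Mc1r LKO livers. In Mc1r LKO 182 it exceeded the other Mc1r LKO livers by 0.82 on the log2 scale, as did Dnajb9 (0.82), Dnajc3 (0.82) and Dnajb11 (0.79), the DnaJ partners of the HSP70 in that compartment. The other 3 did not share this size, at 0.51 for Hspa13, 0.24 for Dnajc1 and -0.16 for Dnajc10, and Dnajc10 was also lower in Control 181, by -0.23 against the other Control livers. Averaged over the list, Mc1r LKO 182 lay 0.44 above the gene mean of the 8 livers, Control 181 lay 0.23 above it, and Control 159 lay lowest at -0.23. By genotype, 6 of 7 were higher with a median log2 fold change of 0.07 and none passed the unadjusted threshold. Without Mc1r LKO 182 only 2 of 7 were higher, with a median of -0.12. Without both Control 181 and Mc1r LKO 182, 2 of 7 were higher, with a median of -0.01. Dnajc16 and Dnajb12, of the same compartment but not on the list, had log2 fold changes of -0.31 and 0.06 by genotype. In Mc1r LKO 182 they differed from the other Mc1r LKO livers by 0.45 and 0.0066 on the log2 scale.

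Of all 70 tested genes, 31 were highest in Mc1r LKO 182, or 44.3%, where 20.2% of all genes were highest in that liver. At the other end, 26 were lowest in Control 159, or 37.1%, where 15.8% of all genes were, and that liver also had the smallest total count. Within a genotype the SD of log2 CPM had a median of 0.20 over the chaperone genes and 0.23 over all genes. It was largest for Hspa1a (1.49), Hspa1b (1.20), Hspb2 (1.06), Dnajb1 (0.98) and Hsph1 (0.75) and smallest for Dnajb12 (0.07).

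By family, the fold changes by genotype were small. All 3 HSP90 genes, all 4 tested DNAJA genes, 8 of 9 DNAJB genes and 5 of 6 BAG genes were higher in Mc1r LKO livers, with median log2 fold changes of 0.16, 0.16, 0.12 and 0.12. Leaving out Mc1r LKO 182, 1 of 3 HSP90, 2 of 4 DNAJA, 3 of 9 DNAJB and 4 of 6 BAG genes were higher, with medians of -0.13, 0.0074, -0.09 and 0.09. Of the 12 tested HSP70 and HSP110 genes 10 were higher, with a median of 0.06, and 4 of 12 without Mc1r LKO 182, with a median of -0.08. The 25 tested DNAJC genes, the most diverse class, were higher in 16 and lower in 9, with a median of 0.05, from -0.43 for Dnajc27 to 0.23 for Dnajc17. Only the DNAJC class, Hspe1 and Hspbap1 supplied genes past the unadjusted threshold. Mc1r LKO 182 was the highest liver for 4 of 25 DNAJC, 4 of 4 DNAJA and 6 of 9 DNAJB genes, and for 20.2% of all genes.

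Among the remaining chaperones, several with a cytosolic or general role also peaked in Mc1r LKO 182. Hspb8 had 138, 172, 158 and 151 CPM in Control livers and 162, 186, 171 and 282 CPM in Mc1r LKO livers. Dnajb4, a relative of Dnajb1, had 38.2, 31.4, 47.4 and 37.0 CPM in Control livers and 40.5, 33.7, 34.5 and 64.4 CPM in Mc1r LKO livers. In both genes the other 3 Mc1r LKO livers lay among or close to the Control livers. Hspa4l, an HSP110 relative, ranged from 24.8 CPM in Mc1r LKO 141 to 51.3 CPM in Mc1r LKO 182, and Hspbp1, a nucleotide exchange factor of HSP70, from 16 CPM in Control 181 to 22.5 CPM in Mc1r LKO 182. Their log2 fold changes by genotype were 0.17 for Dnajb4 (SE 0.208), 0.03 for Hspa4l (SE 0.194) and 0.23 for Hspbp1 (SE 0.118).

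A few members ran the other way. Hspa12b, an atypical HSP70 gene known for expression in endothelial cells, lay between 1.51 and 1.72 CPM in Control livers and at 2.21, 1.56, 1.78 and 0.409 CPM in Mc1r LKO livers. Mc1r LKO 182 was lowest by a wide margin, and the same liver was lowest for Hspa2, the HSP70 of male germ cells, at 2.25 CPM against 2.55 to 5.05 in the other livers, and for Bag2, an inhibitor of the ubiquitin ligase CHIP, at 0.920 against 1.25 to 2.42. The sums of endothelial and other markers in that liver are given below.

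Other chaperones were nearly flat across livers. Dnajc22, a DnaJ protein with several membrane spans at 49.6 CPM per kb, lay between 85.8 and 98.6 CPM in all 8 livers. Dnajb12, an endoplasmic reticulum membrane protein that aids the disposal of misfolded membrane proteins, lay between 63.9 and 75.1 CPM, Bag6, which guards tail-anchored proteins, between 69.7 and 83.2 CPM, and Dnajc7, which binds both HSP70 and HSP90, between 41.4 and 56.3 CPM. Bag1, a nucleotide exchange factor of HSP70, had 86.7, 88.0, 80.0 and 77.4 CPM in Control livers and 91.9, 86.4, 93.0 and 103 CPM in Mc1r LKO livers, with a log2 fold change of 0.17 (SE 0.087). The groups overlapped for Bag1 only because Mc1r LKO 156 fell below Control 154 and 159. Besides Dnajb13, the genes not kept by the filter had at most 7 counts in any liver.

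Partners of the chaperones that the symbols do not cover were taken from fixed lists. The cytosolic chaperonin CCT and its delivery complex prefoldin, which fold actin and tubulin, held 14 genes, all tested and all higher in Mc1r LKO livers, with a median log2 fold change of 0.18. Of these, 5 passed the unadjusted threshold in edgeR's quasi-likelihood test, where 3.86% of all genes passed it as higher: Cct7 at 0.20, Pfdn1 at 0.26, Pfdn2 at 0.24, Pfdn5 at 0.22 and Pfdn6 at 0.29 on the log2 scale. Without Mc1r LKO 182 all 14 were still higher, with a median of 0.13. The call was lost without 5 single livers for Cct7 (Control 154, 181 and 193 and Mc1r LKO 141 and 182) and Pfdn5 (Control 181 and 193 and Mc1r LKO 141, 156 and 157), without 3 for Pfdn1 (Control 154 and 193 and Mc1r LKO 156), without Control 181 for Pfdn2 and without Mc1r LKO 156 for Pfdn6. Adjusted p-values for these 5 were between 0.734 and 0.740 in edgeR's quasi-likelihood test, Benjamini-Hochberg.

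Of 20 co-chaperones of HSP90, 19 were higher, with a median log2 fold change of 0.12, and 1 passed the unadjusted threshold, which 3.86% of all genes passed as higher. When Mc1r LKO 182 was left out, 15 of 20 were higher and the median was 0.07. The gene past the threshold was Fkbp5, an immunophilin and target of the glucocorticoid receptor, at 20.7, 22.5, 16.1 and 22.9 CPM in Control livers and 51.0, 42.5, 37.4 and 44.6 CPM in Mc1r LKO livers. The genotypes were far apart, with a log2 fold change of 1.09 (SE 0.13, unadjusted p = 8.83e-06, adjusted p = 0.118, edgeR's quasi-likelihood test, Benjamini-Hochberg). Its relative Fkbp4 had a log2 fold change of 0.24 (SE 0.14, unadjusted p = 0.119, edgeR's quasi-likelihood test).

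Of 12 other HSP70 partners, 8 were higher and 1 passed the unadjusted threshold, which 3.86% of all genes passed as higher. Leaving out Mc1r LKO 182, 4 of 12 were higher and the median log2 fold change was -0.01. Leaving out Control 181 as well, 7 of 12 were higher, with a median of 0.0036. The gene past the threshold was Grpel1, the nucleotide exchange factor of the mitochondrial HSP70. It had 96.6, 97.8, 106 and 94.7 CPM in Control livers and 121, 113, 114 and 122 CPM in Mc1r LKO livers, without overlap (log2 fold change 0.25, unadjusted p = 0.00958, edgeR's quasi-likelihood test). Grpel1 was also the 1 gene past the threshold among 12 genes of mitochondrial protein quality control, of which 8 were higher, with a median of 0.06, and 7 without Mc1r LKO 182, with a median of 0.0094. HSF1 targets outside the chaperone families, such as Stip1, Chordc1 and Cacybp, were 11 of 14 higher with a median of 0.11 and none past the unadjusted threshold. Without Mc1r LKO 182, 7 of these 14 were higher. Of Hsf4, Hsf5 and Hsbp1, which encodes a protein that binds HSF1, 2 were tested, with log2 fold changes of 0.00 each.

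Other gene lists moved in Mc1r LKO 182 beside the chaperones. Kupffer cell markers summed to 172 CPM (scaled by total count) in Mc1r LKO 182, against 264 to 406 in the other Mc1r LKO livers and 258 to 626 in Control livers, with none of the 7 at 0. Sinusoidal endothelial markers summed to 116 CPM, against 166 to 209 in Control livers, and cholangiocyte markers to 27.0 CPM, against 57.6 to 158. Control 181 was the lowest Control liver for each of these sums. On the same scale hepatocyte markers were at their highest, 98417.5 CPM against 75858.8 to 93725.6 in Control livers. Immediate early genes summed to 252 normalized CPM in Mc1r LKO 182, against 113 to 155 in the other 7 livers. The cold-inducible RNA-binding protein genes Cirbp and Rbm3 summed to 26.7 normalized CPM in Mc1r LKO 182, against 30.5 to 43.4 in the others. By genotype all 9 immediate early genes were higher, with a median log2 fold change of 0.32 and none past the unadjusted threshold, and 5 of 9 were higher without Mc1r LKO 182. Of 13 clock genes 5 were higher, with a median of -0.15. Per1 was higher and Cry2 lower in Mc1r LKO livers at the unadjusted threshold of edgeR's quasi-likelihood test, with log2 fold changes of 0.76 and -0.26, and Cry2 was not past it without Control 159, 181 or 193 or Mc1r LKO 157 or 182. All sums of cell type markers here are scaled by total count. Stellate cell markers summed to 207 CPM in Mc1r LKO 182, against 234 to 444 CPM in Control livers, and lymphocyte markers to 8.56 CPM, against 8.83 to 24.7 CPM. Control 181 was the lowest Control liver for both. The sums of neutrophil, erythroid and pancreatic markers overlapped between the groups, at 1.97 to 3.35, 178 to 228 and 9.95 to 11.4 CPM in Control livers and 2.04 to 5.73, 193 to 258 and 8.87 to 13.2 CPM in Mc1r LKO livers, with 4 of the 5 pancreatic markers at 0 in every liver. Smooth muscle markers summed to 36.0 CPM in Mc1r LKO 182, against 17.0 to 26.9 CPM in the other livers, and skeletal muscle markers to at most 0.0704 CPM in any liver, with Acta1 and Myh4 at 0 in all. The part of any of these in the chaperone values was not tested.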

How the data were processed

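Poly(A) RNA from 8 livers was sequenced as stranded read pairs. Per the submitters' processing notes and the file headers, the authors trimmed reads with Trim Galore 0.6.6, aligned them with STAR 2.7.6a and counted read pairs by strand on Ensembl release 102 genes of GRCm38 with featureCounts (Subread 2.0.1); the methods write GRCh38. The deposited values are whole-number counts per gene, with no normalization or filter. Reads that align to several places were not counted, which lowers genes with near-identical copies.

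Genes were filtered with filterByExpr (minimum count 10, minimum total count 15), normalized by TMM and tested with edgeR 4.0.16 (R 4.3.3), glmQLFit and glmQLFTest, with Benjamini-Hochberg adjustment over 13400 genes. The methods of the study name the filter and TMM but not the test. CPM is TMM-normalized for tested genes and scaled by total count otherwise, as said where given, and log2 CPM has a prior count of 2. The fit was tested on simulated counts for this comparison with 13203 genes in the fit, where it called 72 of 97 genes changed 2-fold, 95 of 97 changed 4-fold and 4 unchanged genes at an adjusted p under 0.05. The simulated spread followed only the trend of spread with level over all genes, with no outlying livers. These rates therefore do not carry over to genes that vary more between livers, such as Hspa1a and Dnajb1.

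Groups were taken from the sample labels. The chaperone genes and all gene lists were chosen with earlier results of these data known, so a list's counts and median stand beside those of all genes with no test of the list. Values in every liver are given for HSF1-induced genes, Hsf1, Hsf2, genes with an unadjusted p under 0.05 or genotypes that do not overlap in log2 CPM, the 5 highest per length and the 5 most variable within a group; other chaperones named, Fkbp4, Stip1, Chordc1 and Cacybp serve as background. The lists held HSF1-induced, endoplasmic reticulum and mitochondrial chaperones, their partners, CCT and prefoldin, mitochondrial quality control, heat shock factors, cold-inducible, immediate early and clock genes and cell type markers. Alternatives were DESeq2 1.42.0, limma-voom (limma 3.58.1), the likelihood ratio test, robust dispersion, RLE, upper quartile and library size scaling, other filters and fold limits, Hspa1a and Hspa1b summed, and livers left out. Exact permutation tests were two-sided. The labels name no batch, so none was tested. Shares of 100-base words were taken over annotated transcripts of GRCm38. Protein sequences were not analysed here.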

Additional observations from a re-analysis of the deposited data

Results flagged for a closer look

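In 9 of 42 checks of the livers of 1 group for 1 named gene, the highest or lowest liver lay far from the other 3. For genes not picked by their values, chance gives about 1 in 20 such groups, or 2.1 of 42. The genes checked share livers and were picked in part for their spread within a group, so the count cannot be set against that rate. In 7 of the 9 the liver was Mc1r LKO 182. It was highest of its group for Dnajb1 at 181 CPM (others 26.5 to 32.5), Hspa1b at 59.1 (5.72 to 11.5), Hspa1a at 4.29 (0.138 to 0.715), Hsph1 at 194 (51.2 to 65.0), Dnaja1 at 327 (137 to 141), Hsp90aa1 at 281 (108 to 137) and Hsp90b1 at 1277 CPM (702 to 752). Control 159, the liver with the smallest total count, was lowest of its group for Hsp90ab1 at 913 CPM (others 1086 to 1119). Mc1r LKO 156 was highest of its group for Hsf1 at 20.1 CPM (others 14.99 to 15.1).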

How the results depend on the processing

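No paired analysis was possible because the mouse numbers differ between the groups. No chaperone gene passed the adjusted threshold under any alternative. The 2 genes past the unadjusted threshold became 4 with upper quartile or library size scaling (5.07% and 4.99% of all genes) and 5 with no filter beyond 1 count (4.73%). They became 4 without both Control 181 and Mc1r LKO 182 (6.46% of all genes), 4 with no limit on the fold change (6.72%) and 1 with a limit of 0.5. With 1 liver left out they ranged from 1 (without Control 154) to 5 (without Mc1r LKO 157), where 4.45% to 6.81% of all genes passed. Hspe1 was among them in every setting but the limit of 0.5. The 2 genes without overlap became 1 with library size scaling (3.75% of all genes) and 7 without both livers (13% of all genes). With 1 liver left out they ranged from 3 to 7, where fewer livers are compared and 6.44% to 8.94% of all genes did not overlap. The median log2 fold change ranged from 0.0075 to 0.14 with 1 liver left out and was 0.033 with library size scaling, which moved the median of all genes to -0.056.

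Hspe1, Fkbp5, Grpel1 and Per1 kept an unadjusted p under 0.05 in all 19 alternatives. Dnajc11 lost it in 8, Dnajc15 in 13, Hspbap1 in 8, Cct7 in 9 and Cry2 in 10, and Dnajb1 reached it with no filter and without Mc1r LKO 157. With 1 liver left out, log2 fold changes that changed sign ranged from -1.14 to 1.22 for Hspa1a, -0.36 to 1.44 for Hspa1b, -0.087 to 0.39 for Hspa8, -0.052 to 0.11 for Hspa4, -0.33 to 0.61 for Hsph1, -0.23 to 0.32 for Hsp90aa1, -0.17 to 0.28 for Hspb1, -0.015 to 0.17 for Hspd1, -0.071 to 0.50 for Dnaja1, -0.10 to 1.35 for Dnajb1, -0.14 to 0.43 for Bag3, -0.022 to 0.19 for Hsf1, -0.13 to 0.23 for Hsp90b1 and -0.77 to 0.0014 for Hspb2. For all but Hspb1 and Hsf1 the change of sign came without Mc1r LKO 182; for Hspa4 it came also without Control 159. Without both livers the values were -0.26 for Hspa1a, -0.059 for Hsph1, -0.12 for Hsp90aa1 and -0.018 for Hsp90b1. Hspb1 was then at -0.32 and Hspb2 at -0.31. In the same setting positive values were 0.12 for Hspa1b, 0.076 for Hspa8, 0.006 for Hspa4 and 0.032 for Hspd1. Dnaja1 was at 0.083, Dnajb1 at 0.14, Bag3 at 0.098 and Hsf1 at 0.086, also positive. With limma-voom Hspa1a was at -0.092 and Hspb1 at 0.011. Apart from the livers left out, the cause was not tested.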
